A study of Mus musculus with 12 samples.

Results

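The core circadian clock genes Arntl, Clock, Npas2, Per1, Per2, Per3, Cry1, Cry2, Nr1d1 and Nr1d2 were followed on 12 one-colour microarrays of mouse esophagus and liver. The 10 genes were chosen by name for their place in the clock, and their probes were found by matching RefSeq accessions. They had 17 probes among the 41174 probes of the array, and they are 10 of the 16535 genes that could be named. The brightest probe stood for a gene. It was well above background on all 12 arrays for 9 of the 10 genes, and for Npas2 on 5 of 6 esophagus and 3 of 6 liver arrays.

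The mice called TG carried a doxycycline-inducible Nanog transgene with the rtTA activator, genotype Col1a1tetO-Nanog/+;Rosa26rtTA/+, and the control mice, called CTR, carried the activator without the transgene, Col1a1+/+;Rosa26rtTA/+. Nanog keeps embryonic stem cells pluripotent, and the title of the series puts its action on mitosis in layered epithelia. All 6 mice were male, about 8 months old and of a mixed 129Sv/C57BL6 background, and all drank doxycycline at 0.2 mg/ml in 7.5% sucrose for 48 h. Esophagus and liver came from the same 6 mice, 3 TG and 3 CTR, and a number in the sample descriptions ties both organs to 1 animal. The activator sits at the Rosa26 locus, which is active in most cell types. The time of day of sampling was not among the labels used.

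The circadian clock of mammals is a feedback loop of transcription that runs in nearly every cell. CLOCK, or its relative NPAS2, pairs with ARNTL (also called BMAL1) and switches on the Per and Cry genes through E-box sequences. The PER and CRY proteins then return to the nucleus and silence that pair, while the nuclear receptors encoded by Nr1d1 and Nr1d2 (REV-ERB alpha and beta) repress Arntl. As a result Arntl transcripts and Per transcripts peak at nearly opposite times of day, in liver as in other organs, and feeding can set the liver clock.

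The promoters of 4 members are shown because they hold the elements of this loop: the E-boxes of Per1 and Cry1, the D-boxes of Per3 and the receptor site of Arntl. Each line holds 250 bases before and 50 bases after an annotated start, 5′ to 3′ on the strand of the gene, from the RefSeq annotation of GRCm38.p6. Capitals mark matches on either strand to the E-box CACGTG, the related E-prime box CACGTT, the D-box TTATGTAA or the core site AGGTCA bound by ROR and REV-ERB receptors. The windows are chr11:69098699-69098998 (plus strand) for Per1, chr10:85185005-85185304 (minus strand) for Cry1, chr4:151044616-151044915 (minus strand) for Per3 and chr7:113207261-113207560 (plus strand) for Arntl.
Per1: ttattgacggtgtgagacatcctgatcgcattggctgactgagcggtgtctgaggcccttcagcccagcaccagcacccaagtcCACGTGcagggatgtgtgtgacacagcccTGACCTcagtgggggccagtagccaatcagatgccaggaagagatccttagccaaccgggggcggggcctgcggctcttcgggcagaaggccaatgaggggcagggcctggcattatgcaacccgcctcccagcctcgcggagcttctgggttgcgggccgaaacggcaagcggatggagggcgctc
Cry1: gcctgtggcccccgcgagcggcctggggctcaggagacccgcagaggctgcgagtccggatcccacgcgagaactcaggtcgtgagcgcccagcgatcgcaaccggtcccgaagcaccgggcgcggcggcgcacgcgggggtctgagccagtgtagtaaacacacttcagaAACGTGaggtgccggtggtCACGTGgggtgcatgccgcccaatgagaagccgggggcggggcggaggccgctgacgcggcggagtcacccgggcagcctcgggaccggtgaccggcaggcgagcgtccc
Per3: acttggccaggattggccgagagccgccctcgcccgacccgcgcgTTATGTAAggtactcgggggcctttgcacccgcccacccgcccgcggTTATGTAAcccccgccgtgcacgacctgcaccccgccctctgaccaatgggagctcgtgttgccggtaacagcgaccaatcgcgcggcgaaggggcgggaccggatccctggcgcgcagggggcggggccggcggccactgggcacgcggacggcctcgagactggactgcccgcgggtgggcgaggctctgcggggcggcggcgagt
Arntl: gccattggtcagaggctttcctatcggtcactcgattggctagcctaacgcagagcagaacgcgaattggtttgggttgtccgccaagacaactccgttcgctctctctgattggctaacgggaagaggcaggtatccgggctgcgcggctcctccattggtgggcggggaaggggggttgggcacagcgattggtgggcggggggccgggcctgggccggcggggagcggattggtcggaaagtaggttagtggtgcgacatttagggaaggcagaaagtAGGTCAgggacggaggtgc

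The Per1 window held an E-box 166 bases before the start and a receptor site in the reverse direction, and the Cry1 window held an E-box 60 bases before the start with an E-prime box just upstream of it. The Per3 window held a pair of D-boxes, the element bound by the clock output factors DBP, TEF and HLF, and the Arntl window held 1 receptor site 31 bases past the start. Over all 32851 promoter windows of the same length, 7.15% held the E-box, 4.68% the E-prime box, 0.938% the D-box and 16.3% the receptor site. The promoter table held 13 windows of 9 members, some with more than 1 window, and none of Per2. The E-box was found in 2 of these windows (Per1 and Cry1) and the E-prime box in 3 (Cry1, Cry2 and Nr1d1). The D-box was found in 1 window (Per3) and the receptor site in 4 (Arntl, Clock, Nr1d2 and Per1). The other window of Per1 and that of Arntl, which are not shown, held no match. The cyclic AMP element TGACGTCA was found in 0 of the 13 member windows and in 1.79% of all windows. None of the matches overlapped another, and a match describes the letters only.

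Levels are log2 signals relative to the 75th percentile of each array, so that 0 is the brightness of that percentile, and a level of one probe is not set against the level of another. The share of probes well above background was highest on liver TG3 (81.8%) and lowest on liver CTR3 (56.4%). Precision is limited by having 3 arrays in each group. In the reported fit each SE and interval comes from an estimate of spread shared by both organs. The within-group SD of Per1 was 0.37 in esophagus and 1.76 in liver. An SE given for esophagus therefore includes liver spread, and an SE given for liver includes esophagus spread. Within a group r across genes was 0.965 to 0.991 and between organs 0.699 to 0.726, and no array fell with the wrong organ. Krt5, a keratin of the basal layer of squamous epithelium, ran from 7.50 to 8.21 in esophagus and from -2.97 to -0.85 in liver. The Nanog probe was not well above background in any group, with -7.78, -8.07 and -8.20 in TG and -8.38, -7.98 and -8.15 in CTR esophagus, so transgene induction was not seen on these arrays. Where that probe lies in the mRNA was not analysed here.

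In clock genes some arrays stood apart from others of their organ, across the genotype labels in liver and within TG in esophagus. The esophagi of TG1 and TG2 had the 2 lowest levels of Per1, Per2, Per3, Cry2 and Nr1d2 among the 6 esophagi, and the 2 highest levels of Arntl, Clock and Npas2. The livers of TG2 and CTR1 had the 2 lowest levels of the same 5 genes among the 6 livers, and the 2 highest levels of Arntl and Clock. Over all genes well above background on the 6 arrays of the organ, the esophagus pair was lowest for 7.8% and highest for 6.37%. The liver pair was lowest for 13.4% and highest for 12.6% of genes. Livers TG2 and CTR1 were also the most alike of all pairs of livers across genes (r = 0.985), so they did not stand apart in clock genes alone. Both pairs were chosen from the values of the clock genes and are described without a test. Values without each pair are given beside the genotype and organ comparisons and depend on that choice. The map of deviations shows the pairs as columns in which the Per rows and the Arntl and Clock rows have opposite colours.

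**Figure D1:**
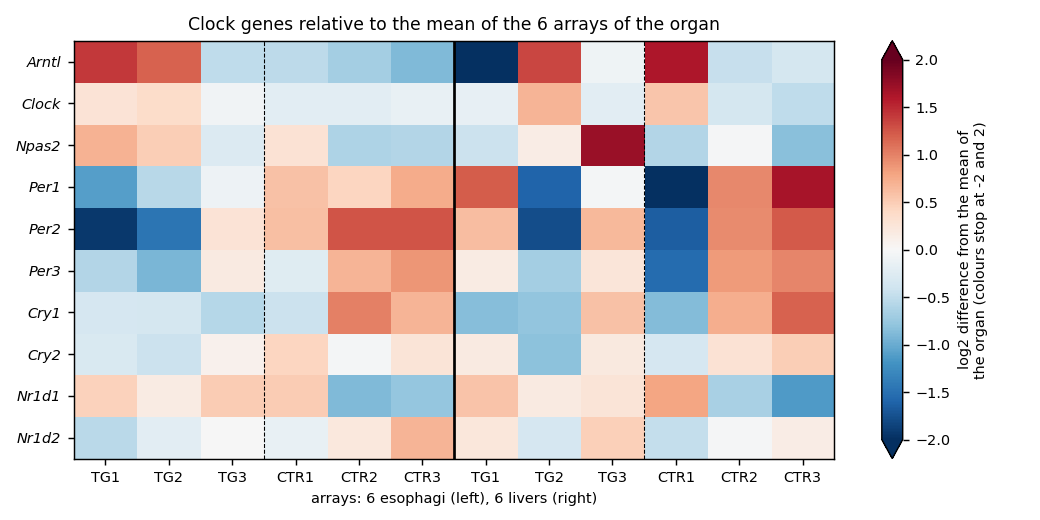
Colour map of the 10 clock genes (rows) on the 12 arrays (columns), as the log2 difference from the mean of the 6 arrays of the same organ, with esophagi left of the solid line, livers right of it, and TG left of CTR within each organ. Esophagi TG1 and TG2 and livers TG2 and CTR1 are blue for Per1, Per2 and Per3 and red for Arntl and Clock.

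The activating arm of the loop had higher mean levels in TG than in CTR esophagus, without passing the test. Arntl, the obligate partner of CLOCK, stood at 0.69, 0.45 and -1.24 in esophagi TG1, TG2 and TG3, against -1.24, -1.41 and -1.60 in CTR1, CTR2 and CTR3. TG1 and TG2 were high and TG3 lay at the upper edge of the controls, so that the groups touch but do not overlap. The difference was 1.39 (SE 0.84) on the log2 scale, with a 95% interval from -0.48 to 3.25 (limma adjusted p = 1.00). Clock, which encodes the DNA-binding partner of ARNTL, stood at 2.08, 2.17 and 1.74 in TG and at 1.60, 1.60 and 1.65 in CTR esophagus. All 3 TG arrays lay above the controls, and the difference was 0.38 (SE 0.31, limma adjusted p = 1.00). Npas2, which can replace CLOCK, was dim at -4.00, -4.20 and -4.96 in TG and at -4.40, -5.31 and -5.28 in CTR esophagus. Its groups overlapped, with a difference of 0.61 (SE 0.51).

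The repressors of the Per family had lower mean levels in TG esophagus. Per2, whose protein carries the CRY proteins to the nucleus, stood at -2.92, -2.46 and -0.73 in TG1, TG2 and TG3, against -0.41, 0.26 and 0.26 in CTR1, CTR2 and CTR3. TG1 and TG2 were far below every other esophagus, and TG3 was below the controls by less than the controls differed among themselves. The difference was -2.07 (SE 0.88, 95% interval -4.03 to -0.11), a 4.21-fold lower signal. In the reported fit Per2 was the only member with an unadjusted p under 0.05 (0.0400), and it did not pass over all genes (limma adjusted p = 1.00). Per1, which responds quickly to light and hormone signals, stood at 0.27, 0.82 and 1.26 in TG and at 1.95, 1.80 and 2.10 in CTR esophagus. Its groups did not overlap, and the difference was -1.17 (SE 0.92). Per3, which is not needed for the rhythm itself in mice, stood at -3.12, -3.46 and -2.35 in TG and at -2.78, -1.87 and -1.66 in CTR esophagus. Here TG3 lay among the controls, and the difference was -0.88 (SE 0.63).

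**Figure D2:**
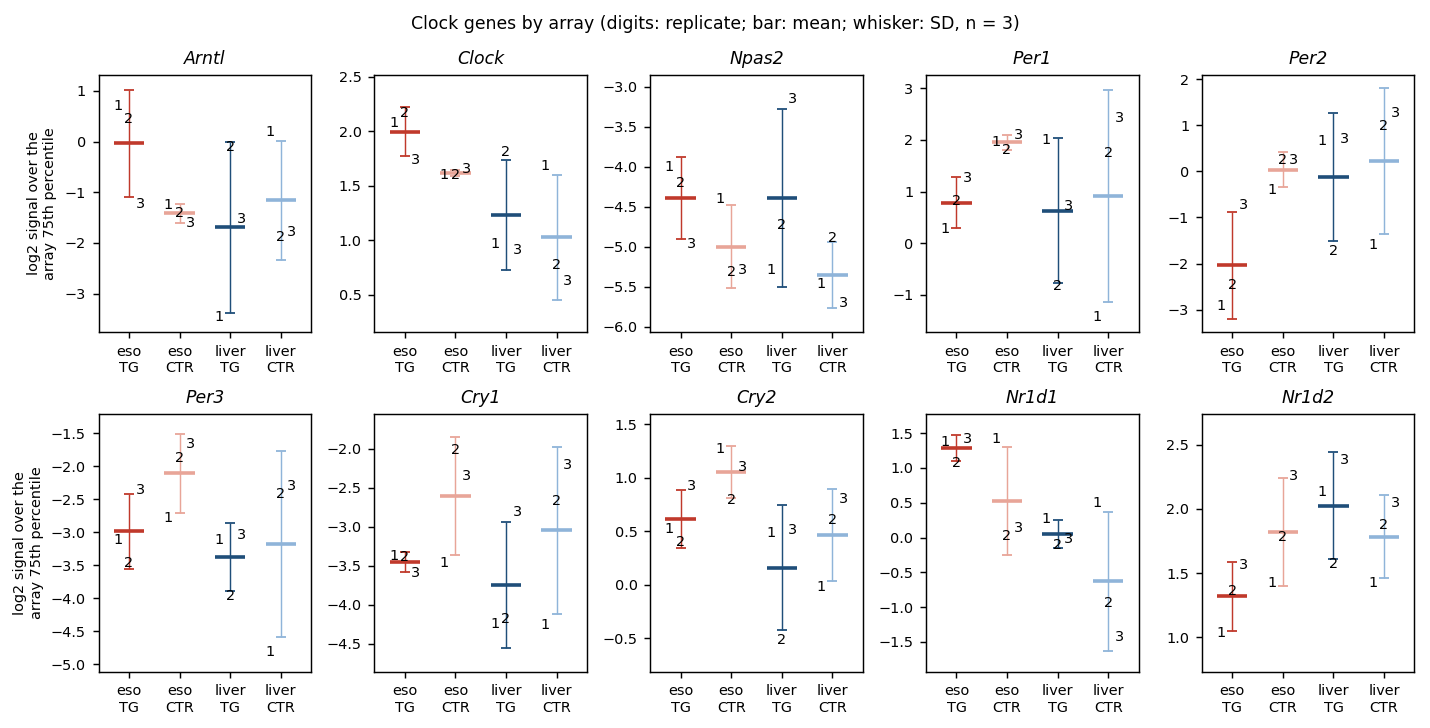
Level of each clock gene (y axis, log2 signal over the array's 75th percentile) by group (x axis, TG left of CTR in esophagus and in liver); digits are the mice 1 to 3 of a group, the thick bar is the group mean and the whisker 1 SD (n = 3). Arntl, Clock, Per1 and Per2 are the members whose TG and CTR esophagi do not overlap, and the livers of every member overlap between TG and CTR.

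The cryptochromes and REV-ERB genes had smaller mean differences than the 3 Per genes in esophagus. Cry1, the stronger repressor of CLOCK and ARNTL, stood at -3.37, -3.39 and -3.60 in TG and at -3.46, -2.02 and -2.35 in CTR esophagus, so that CTR1 lay with the TG mice. Cry2 stood at 0.52, 0.40 and 0.92 in TG and at 1.27, 0.79 and 1.10 in CTR esophagus, and the groups overlapped. Their differences were -0.84 (SE 0.57) for Cry1 and -0.44 (SE 0.31) for Cry2. Nr1d1, the main repressor of Arntl, stood at 1.37, 1.07 and 1.42 in TG and at 1.42, 0.03 and 0.14 in CTR esophagus. CTR1 again lay with the TG mice while CTR2 and CTR3 were low, and the difference was 0.76 (SE 0.48). Nr1d2 stood at 1.03, 1.36 and 1.56 in TG and at 1.42, 1.78 and 2.26 in CTR esophagus, a difference of -0.50 (SE 0.29) with overlapping groups. Nr1d1 and Nr1d2, whose products have largely shared tasks, had mean differences of opposite sign, and neither passed.

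Counted together, 0 of the 10 members passed in esophagus at an adjusted p under 0.05 (limma, Benjamini-Hochberg over all 23147 genes tested), where 0% of all genes passed. Over all genes 920, or 3.97%, had an unadjusted p under 0.05, and the smallest adjusted p was 0.137. In 4 of 10 members the TG and CTR values did not overlap, Arntl and Clock being higher and Per1 and Per2 lower in TG, and over all genes tested 12.5% did not overlap, 6.32% higher and 6.13% lower in TG. For a single gene such a separation of 3 against 3 mice reaches an exact two-sided permutation p of 0.1 at best. The median difference over the 10 members was -0.47, beside -0.0036 over all genes. Without esophagi TG1 and CTR1, 0 of 10 members passed as well, with Per2 at -1.85 (SE 1.14), Arntl at 1.11 (SE 1.11), Nr1d1 at 1.16 (SE 0.54) and Cry1 at -1.31 (SE 0.69). Without esophagi TG1 and TG2, a setting chosen after seeing the data, TG3 was the only TG esophagus left and was assumed to vary like the other groups. There Per2 was at -0.77 (SE 1.24), Per1 at -0.69 (SE 1.44), Arntl at 0.18 (SE 1.19) and Clock at 0.12 (SE 0.48), and 0 of 10 members passed. Without livers TG2 and CTR1, which enter the shared estimate of spread, 5 of 10 members had an unadjusted p under 0.05 in esophagus, Per1, Per2, Per3, Arntl and Clock, beside 4.34% of all genes. In that fit the SE of Per2 was 0.51 (limma unadjusted p = 0.00334) and that of Arntl 0.59 (limma unadjusted p = 0.0471). The limma adjusted p for all 5 was 0.998. These 2 livers were picked for their extreme values in the same clock genes, so a smaller spread follows from the choice. The unadjusted p-values of that fit therefore do not count as evidence of a genotype difference. A fit of the esophagus arrays alone, which leaves out every liver, gave 3 of 10 members an unadjusted limma p under 0.05. That stood beside 6.44% of all genes, and 0 of 10 members passed after adjustment.

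In some marker lists of other cell types the summed level did not overlap between TG and CTR esophagi. No marker passed between these groups (0 of the genes tested in any marker list, limma adjusted p). Of all single genes tested, 12.5% did not overlap between them. The summed level of 5 heart markers ran from 2.87 to 3.14 in TG and from 3.90 to 7.46 in CTR esophagi, and that of 3 red blood cell markers from 5.46 to 6.04 in TG and from 6.48 to 7.22 in CTR, without overlap. The groups overlapped in the other lists. The 5 airway markers ran from -0.11 to 6.76 in TG and from 4.85 to 7.99 in CTR, and the 6 adipocyte markers from 5.33 to 7.13 in TG and from 6.74 to 7.19 in CTR. The 6 squamous keratinocyte markers overlapped, at 8.92 to 9.39 in TG and 8.98 to 9.44 in CTR, as did the 6 striated muscle markers, at 10.28 to 10.46 in TG and 10.27 to 10.58 in CTR. None of these 6 lists had a defining marker below background on every esophagus array. In RNA from whole tissue, fewer cells of a type and less RNA per cell cannot be told apart, and the part of these markers in the clock differences was not tested. On the 1 slide that held both a TG and a CTR esophagus, TG1 minus CTR2 was -3.18 for Per2, -1.52 for Per1, 2.10 for Arntl and 1.34 for Nr1d1.

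In liver no clock gene separated the genotypes, and the spread was between mice of each group. Per1 stood at 1.99, -0.82 and 0.72 in livers TG1, TG2 and TG3, against -1.43, 1.74 and 2.42 in CTR1, CTR2 and CTR3. Both groups held high and low livers, over a 14.4-fold range, and the difference was -0.28 (SE 0.91). Per2 stood at 0.66, -1.73 and 0.70 in TG and at -1.60, 0.99 and 1.27 in CTR liver. TG2 and CTR1 lay at least 2.26 log2 units below the 4 other livers, and the difference was -0.34 (SE 0.87). Per3 stood at -3.11, -3.96 and -3.04 in TG and at -4.81, -2.42 and -2.30 in CTR liver, with the same 2 livers lowest and a difference of -0.19 (SE 0.62).

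Arntl ran against the Per genes in liver. It stood at -3.46, -0.10 and -1.52 in livers TG1, TG2 and TG3, against 0.19, -1.89 and -1.79 in CTR1, CTR2 and CTR3. TG2 and CTR1 were high, TG1 was lowest of all, and the 12.6-fold range left a difference of -0.53 (SE 0.83). Clock stood at 0.97, 1.81 and 0.91 in TG and at 1.68, 0.77 and 0.63 in CTR liver, again with TG2 and CTR1 highest, and differed by 0.20 (SE 0.31). Npas2 stood at -5.29, -4.72 and -3.15 in TG and at -5.46, -4.89 and -5.70 in CTR liver. It was not tested there because it was not well above background on all arrays of either group, and its highest value was on TG3, the array with the most probes above background.

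The pair of livers that stood apart did not do so in every member. Cry1 was lowest in CTR1, TG1 and TG2, at -4.25, -4.18 and -2.81 in TG1, TG2 and TG3 and at -4.26, -2.67 and -2.21 in CTR1, CTR2 and CTR3. Its difference of -0.70 (SE 0.56) was the largest in size among the 9 tested members. Cry2 stood at 0.49, -0.51 and 0.51 in TG and at -0.02, 0.60 and 0.80 in CTR liver, a difference of -0.30 (SE 0.31). Nr1d1 stood at 0.27, -0.11 and -0.03 in TG and at 0.49, -0.95 and -1.43 in CTR liver, so that CTR2 and CTR3 were the lowest livers, as CTR2 and CTR3 were the lowest esophagi. It differed by 0.67 (SE 0.47). Nr1d2 stood at 2.13, 1.57 and 2.38 in TG and at 1.42, 1.88 and 2.05 in CTR liver, a difference of 0.24 (SE 0.28).

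None of these differences passed in liver, where 0 of 9 tested members and 0% of 21197 genes had a limma adjusted p under 0.05, with 1764 genes, or 8.32%, under 0.05 unadjusted. The groups overlapped in 9 of 9 tested members, and over all genes 11.3% did not overlap. The members' median was -0.28, beside 0.13 over all genes, and that median of all genes was 0.02 with quantile normalization, so the scaling shifts every liver difference. Relative to the median of all genes, Cry1 was at -0.82, Arntl at -0.66 and Nr1d1 at 0.55. Without livers TG2 and CTR1 again 0 of 9 members passed, and Nr1d1 was at 1.31 (SE 0.44, limma adjusted p = 0.270), Cry1 at -1.09 (SE 0.54) and Per2 at -0.45 (SE 0.61). On the 1 slide with both genotypes, liver TG3 minus CTR2 was -0.29 for Per2, 0.37 for Arntl and 0.92 for Nr1d1.

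**Figure D3:**
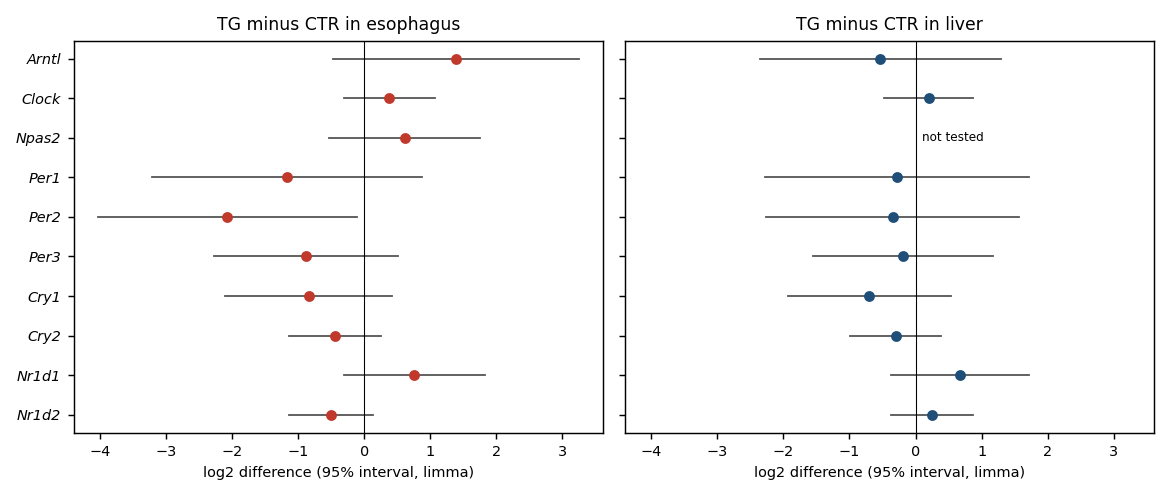
TG minus CTR for each clock gene in esophagus (left) and liver (right), as the log2 difference (x axis) with its 95% interval from limma. The interval of Per2 in esophagus, -4.03 to -0.11, lies below 0, and every other interval crosses 0.

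The genotype difference itself was compared between the organs. The esophagus difference minus the liver difference was 1.92 (SE 1.19, 95% interval -0.73 to 4.56) for Arntl and -1.73 (SE 1.25, 95% interval -4.51 to 1.05) for Per2. Nr1d2 had the smallest unadjusted p among the members, 0.0955, with a change of -0.74 (SE 0.41). None of the 10 members passed (limma adjusted p = 0.943 for these 3), where 0% of 24372 genes passed and 1211, or 4.97%, had an unadjusted p under 0.05. The median of all genes for this contrast was -0.15, and -0.0036 with quantile normalization. The intervals of all 10 members include 0.

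Clock genes varied between mice of one group more than most genes did. The within-group SD of Per1 in liver, 1.76, ranked 48 among 18074 genes well above background on all 6 livers, beside a median SD of 0.29. Per2 at 1.49 was in the top 0.515% and Arntl at 1.45 in the top 0.586% of liver genes. In esophagus Per2 had the highest within-group SD of the members, 0.86, in the top 2.98% of 21782 genes, followed by Arntl at 0.75 in the top 4.47%. Clock was at the other end in esophagus, with an SD of 0.16 that about 77.8% of genes reached or exceeded. For 9 of the 9 members measured in both organs on this footing the SD was larger in liver. The median SD over all genes was also larger there, at 0.29 in liver and 0.25 in esophagus. For Nr1d2 the SDs were close, at 0.37 and 0.35. The share of all genes with a larger SD in liver was not computed. These ranks describe the members and were not tested.

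Because both organs came from the same mouse, the deviations of its esophagus and its liver from their organ means could be set side by side. Over the 10 members, a correlation across genes that are not independent, these deviations had r = 0.92 in mouse TG2, 0.89 in CTR2 and 0.88 in CTR3. In mouse TG1 the value was -0.72, in CTR1 -0.41 and in TG3 -0.11. Esophagus TG1 had low Per2 and high Arntl, while the liver labelled as from the same mouse was among the 4 with high Per2 and had the lowest Arntl. Esophagus CTR1 had Per1 at the level of the other controls, while its liver had the lowest Per1 of all livers. Esophagus TG1 was most like liver TG2 (r = 0.94), and esophagus CTR1 was most like liver TG1 (r = 0.77). High values were not particular to organs of one mouse. They were 0.89 for esophagus CTR2 with liver CTR3, 0.88 for esophagus CTR3 with liver CTR2 and 0.83 for esophagus TG2 with liver CTR1. The liver of the same mouse was the best match for 2 of 6 esophagi by clock genes. Over all 17221 genes above background in both organs, r between the organs of one mouse ran from -0.09 to 0.17, and there too the liver of the same mouse was the best match for 2 of 6 esophagi. These were TG1 (r = 0.16) and CTR2 (r = 0.17), so esophagus TG1 matched its own liver best over all genes and not by clock genes. The labels were kept as given throughout, and the 2 mice with negative values far from 0, TG1 and CTR1, are those left out of the esophagus in the values given above.

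**Figure D4:**
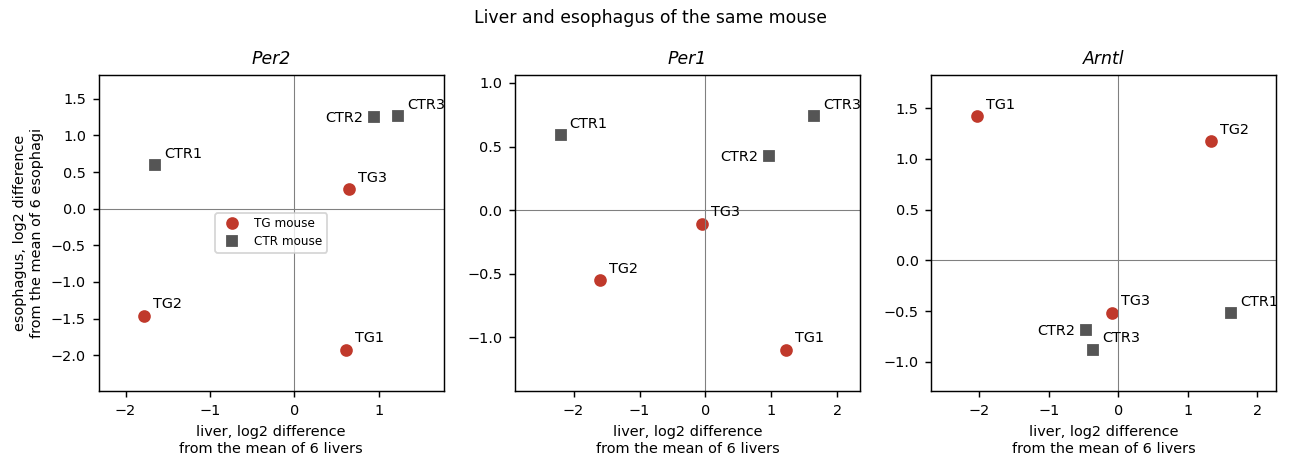
Deviation of Per2, Per1 and Arntl from the organ mean in the liver (x axis, log2) and the esophagus (y axis, log2) of each of the 6 mice, circles for TG and squares for CTR. Mice TG2, TG3, CTR2 and CTR3 lie on the side where both organs deviate the same way in Per2, and TG1 and CTR1 lie where they deviate in opposite directions.

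Between the organs, 2 of the 10 members were called, Nr1d1 and Clock, both higher in esophagus than in liver. Nr1d1 averaged 1.29 ± 0.19 in TG and 0.53 ± 0.77 in CTR esophagus, and 0.05 ± 0.20 in TG and -0.63 ± 1.00 in CTR liver (SD, n = 3 each). The difference of the organ means was 1.20 (SE 0.34, limma adjusted p = 0.00878), a 2.29-fold higher signal in esophagus. Clock averaged 2.00 ± 0.23 in TG and 1.62 ± 0.03 in CTR esophagus, and 1.23 ± 0.50 in TG and 1.03 ± 0.57 in CTR liver (SD, n = 3 each), a difference of 0.68 (SE 0.22, limma adjusted p = 0.0174). Of all 24372 genes tested, 72.3% were called in either direction with 29.5% higher and 42.8% lower in esophagus, so the members' share is below the background. The ranges of the 6 esophagi and the 6 livers overlapped for 10 of 10 members, while 53.1% of all genes did not overlap. Relative to the median of all genes in this contrast, -0.29, Nr1d1 was at 1.48 and Clock at 0.96; with quantile normalization that median was -0.08. The esophagi were extracted with a fibrous-tissue kit and the livers in Trizol with a column clean-up, and these 2 methods and the organs cannot be told apart.

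The other 8 members did not pass between organs. Cry2 was at 0.52 (SE 0.22, limma adjusted p = 0.0553), Per3 at 0.73 (SE 0.44, adjusted p = 0.160) and Per2 at -1.05 (SE 0.63, adjusted p = 0.154). With each animal as a fixed replicate block, which uses the labels that tie both organs to 1 mouse, Per3 was called as well (limma adjusted p = 0.0292), and Cry2 passed with the animal as a random replicate block (adjusted p = 0.0459). The call of Cry2 also depended on the normalization, since it passed with normexp (adjusted p = 0.0406), with quantile normalization (0.0423) and with the authors' table (0.0412). Normexp and the authors' table hold nearly the same values, so these calls are not separate evidence. The arrays that stood apart decide several of these calls. Without livers TG2 and CTR1, 5 members were called. Nr1d1 at 1.44, Clock at 0.99 and Arntl at 1.44 were higher in esophagus, and Per2 at -1.90 (limma adjusted p = 0.00295) and Nr1d2 at -0.54 were lower. Those 2 livers were picked for low Per2 and Nr1d2 and high Arntl and Clock. Leaving them out shifts these liver means and narrows their spread by design, so the added calls are not separate evidence of an organ difference. Per2 also passed when only liver TG2 was left out (-1.45, adjusted p = 0.0461) or only liver CTR1 (-1.50, adjusted p = 0.0298), and Cry2 passed without liver TG1 (0.61), liver TG3 (0.61) or liver CTR3 (0.61). Without esophagi TG1 and CTR1 only Nr1d1 was called (0.95, adjusted p = 0.0393), and Clock was at 0.66 (adjusted p = 0.0636). Without esophagi TG1 and TG2 again only Nr1d1 was called (1.27, adjusted p = 0.0455), and Clock was at 0.55 (adjusted p = 0.146).

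The order of the 4 groups was read for each member on its own probe. Per1 averaged 0.78 ± 0.50 in TG and 1.95 ± 0.15 in CTR esophagus, and 0.63 ± 1.41 in TG and 0.91 ± 2.05 in CTR liver (SD, n = 3 each), so that CTR esophagus was highest and TG liver lowest. Per2 averaged -2.04 ± 1.16 in TG and 0.04 ± 0.38 in CTR esophagus, and -0.12 ± 1.39 in TG and 0.22 ± 1.58 in CTR liver, with TG esophagus lowest and the 3 other groups close together. Arntl averaged -0.03 ± 1.05 in TG and -1.42 ± 0.18 in CTR esophagus, and -1.69 ± 1.69 in TG and -1.16 ± 1.17 in CTR liver, with TG esophagus highest. Neighbours in these orders overlapped in their ranges for Per1, Per2 and Arntl. Among all members the one pair of neighbouring groups without overlap was TG over CTR esophagus for Clock.

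Different probes of a gene did not always give the same picture. The second Per2 probe, well above background on all arrays, was nearly flat within each organ, at -2.39, -2.42 and -2.13 in TG and -2.25, -2.38 and -2.22 in CTR esophagus. Its TG minus CTR difference was -0.03 (SE 0.20), where the brighter probe gave -2.07. For the organs both Per2 probes were lower in esophagus, by -1.05 and -1.47. The 3 Nr1d1 probes had TG minus CTR differences of 0.76 (SE 0.48), -0.17 (SE 0.27) and 0.65 (SE 0.35) in esophagus, and differences between organs of 1.20, 2.49 and -0.49, so that probe 3 was lower in esophagus. The second Clock probe gave 0.39 (SE 0.27) in esophagus and 0.73 between organs, close to the first, and the dim probe 3 gave 0.94 (SE 0.37) and -0.67. The second Cry1 probe gave -0.81 (SE 0.44) in esophagus, near the -0.84 of the first, and the second Cry2 probe, which was dim, 0.11 (SE 0.41) and, between organs, -1.16 (SE 0.29) against 0.52. Which transcripts the probes meet was not analysed here.

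**Figure D5:**
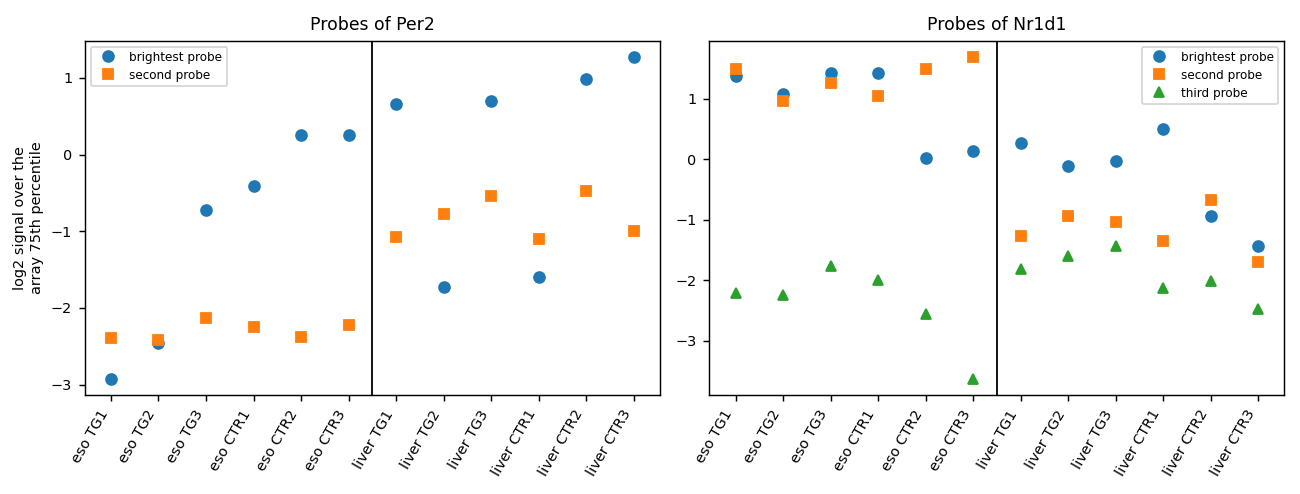
Level on each array (y axis, log2 signal over the array's 75th percentile) of the 2 probes of Per2 and the 3 probes of Nr1d1, with esophagi left of the line, livers right of it, and TG before CTR. The brightest Per2 probe ranges from -2.92 to 0.26 over the esophagi, while the second probe stays between -2.42 and -2.13.

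Some clock output genes and loop partners were low on the same arrays as Per2. Esophagi TG1 and TG2 were the 2 lowest esophagi for 5 of 9 other clock transcription factors well above background on all 6, for 3 of 10 turnover genes, for 2 of 11 cofactors and for 3 of 12 downstream genes, beside 7.8% of all genes. Livers TG2 and CTR1 were the 2 lowest livers for 7 of 8 of these transcription factors, 2 of 10 turnover genes, 1 of 10 cofactors and 7 of 15 downstream genes, beside 13.4% of all genes. Lists from outside the clock showed low values of the liver pair too. It was lowest for 5 of 9 genes of the glucocorticoid and feeding response and for 4 of 9 immediate early genes. The esophagus pair was lowest for 2 of 8 and 0 of 10 genes of these lists. The pairs were chosen on the members of these same arrays, so the counts are a description. The transcription factors Dbp, Tef and Hlf, which bind D-boxes such as those of Per3, were lowest in the same esophagi, TG1 and TG2, and the same livers, TG2 and CTR1, as Per2. Dbp stood at 4.61, 4.67 and 5.84 in TG and at 6.04, 5.63 and 6.04 in CTR esophagus, and at 7.00, 4.42 and 7.18 in TG and 4.78, 5.90 and 5.64 in CTR liver. Ciart, a repressor of CLOCK and ARNTL, stood at -2.95, -3.02 and -0.82 in TG and at -0.81, -1.56 and -1.02 in CTR esophagus. In liver it stood at 0.24, -4.30 and 0.44 in TG and at -3.83, 0.36 and 0.27 in CTR, so that TG2 and CTR1 were the low livers once more. Usp2, a deubiquitinase that acts on clock proteins, showed the same 2 livers low, at 0.88, -3.27 and 1.84 in TG and -2.92, 2.11 and 2.50 in CTR. Hlf had the smallest unadjusted p in esophagus among these factors, 0.00880, with a difference of -1.25 (SE 0.39, limma adjusted p = 1.00).

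Of 11 other transcription factors of the clock, 0 of those tested passed between genotypes in either organ, and between organs 1 was higher in esophagus (Bhlhe41, a repressor at E-boxes, 0.96) and 2 were lower (Nfil3, a repressor at D-boxes, -2.91, and Hlf, -1.43). Over all genes tested 72.3% were called between organs, 29.5% higher and 42.8% lower in esophagus, and the list counts are given beside that share without a test. Of 11 genes for the turnover of clock proteins, 0 of those tested passed between genotypes, while 7 were higher and 1 was lower in esophagus than in liver. Csnk1e, the casein kinase that marks PER proteins for decay, was higher by 2.60 (SE 0.18), while Csnk1d, the related kinase, was at 0.03 (SE 0.12). Fbxl21, which binds CRY proteins, was the one called lower and was not well above background on any esophagus array. Of 11 cofactors, 2 were higher and 3 lower in esophagus, and of 16 genes downstream of the clock 2 were higher and 11 lower, with 0 passing between genotypes in either list. Among genes of the glucocorticoid and feeding response, 0 of those tested passed between genotypes. One of them, Tsc22d3, which glucocorticoids induce, stood at 2.07, 2.38 and 2.52 in TG and at 3.28, 3.78 and 4.30 in CTR esophagus. Its groups did not overlap, as in 12.5% of all genes tested, and it was picked after its values were seen. The median difference of the list was -0.20 in esophagus, beside -0.0036 over all genes, and -0.23 in liver, beside 0.13. Whether the list moved as a whole was not tested. Of its 8 genes tested in esophagus 2 had higher means in TG, Pdk4 (0.55) and Angptl4 (0.15), and Sgk1 was at -0.0095. Of its 9 genes tested in liver 3 had higher means in TG. The immediate early genes, which mark recent stimulation, had a median difference of -0.0030 between TG and CTR esophagus, with 0 of 10 passing.

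The genes most like 3 of the members were found by Pearson's r of log2 levels after the organ mean was subtracted, over the 12 arrays and 10971 genes well above background on all of them. Arrays of one mouse share their animal and arrays of one slide their hybridisation, so r is a description. Closest to Per2 were Klf15 (0.96), Zfp874a (0.95), Rev1 (0.95), Tef (0.93) and Pus7 (0.92). Klf15 is a zinc-finger factor of metabolism and Tef a D-box factor. Closest to Arntl were Cited2 (0.94), Prpsap2 (0.90), Dct (0.89), Cyp2c66 (0.89) and Sphk2 (0.88). Among the closest to Nr1d1 were Ubap2l (0.94), Golga4 (0.93), Atxn2 (0.93) and Smarca4 (0.92), none of them a clock gene by the lists used. No other member was among the 5 closest genes of Per2, Arntl or Nr1d1. The ranking was by signed r, so members that ran opposite to the target could not enter it. By the same measure r was -0.93 between Per2 and Clock, -0.87 between Per2 and Arntl and -0.90 between Cry1 and Nr1d1, and 0.90 between Per2 and Per3.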

How the data were processed

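Per the file headers, the deposited scanner files hold spot intensity values that Agilent Feature Extraction 10.7.1.1 made from a mouse array (design 14868, annotated on mm8), background-subtracted but not scaled between arrays. A second deposited table holds log2 values of the 12 arrays and served as an alternative. Per the submitters' processing notes limma was used, and no source used here gives the table's background treatment. On each array its values correlated with those of the normexp setting, which includes quantile normalization, at r of 0.999923 to 0.999975. The authors' table and the normexp setting are therefore nearly the same and not independent.

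Control spots and 1311 outlier spots were dropped, and repeated spots of a probe were averaged. Of 41174 probes, 23374 took a name from the RefSeq gene table of GRCm38.p6 (16535 genes), and the remaining 17800 were tested under their identifiers. Levels were log2 processed signals from which each array's 75th percentile was subtracted. A gene was represented by its brightest probe and tested if 1 group of the contrast had it well above background on its 3 arrays. One limma fit (3.58.1, R 4.3.3) took 12 arrays in 4 groups, with 8 residual degrees of freedom and Benjamini-Hochberg adjustment at 0.05 over all genes tested. The mice of a group are biological replicates, per the series design.

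The members, the gene lists and the alternatives were chosen with earlier results of these data known. The rule for naming genes takes the 10 members with every probe, Nanog, the 5 genes most like Per2, Nr1d1 and Arntl, and from each pathway list its counts and up to 4 genes with the smallest p per contrast; some genes it takes are not reported here. Csnk1d, Ciart, Usp2, Tef, Dbp, Bhlhe41 and Tsc22d3 were named after their values were seen where the rule did not name them. Normexp was run on the median signal, since the files have no mean signal column. Both organs of a mouse are tied by the labels, and this pairing was used as an alternative for the organ contrast. TG and CTR mice share only a replicate number. The fit was tested on simulated data. Tables and figures were made with Python 3.11.15, pandas 2.3.3, numpy 2.4.6 and matplotlib 3.10.9.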

Additional observations from a re-analysis of the deposited data

How the results depend on the processing

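In esophagus the TG minus CTR values of the 10 members neither changed sign nor passed in 150 of 150 values from settings other than leaving out single arrays, and in 120 of 120 values with single arrays left out. Many of these signs were fixed in advance. Leaving out livers, or a block by replicate number or animal, changes the SE and not the esophagus difference. The members' median stayed at -0.47 in those settings, so their unchanged signs say nothing about stability. Over all genes of esophagus, 0 were called in the reported fit, 2 with normexp, with the authors' table and with a common floor, 1 with quantile normalization, with the slide as a fixed block, with the arrays of one organ, with array weights and without esophagi TG1 and TG2 (a setting chosen after seeing the data), 3 without esophagi TG1 and CTR1, and 0 to 7 without single arrays, with 7 without esophagus TG2. In liver 32 genes were called without livers TG2 and CTR1, and 0 to 18 without single arrays, with 18 without liver TG2. For the esophagus minus liver change, 1 gene was called with normexp, quantile normalization, the authors' table and the common floor, and 0 to 1 without single arrays. No clock member was among these calls. Between organs the count of members called was 2 in the reported fit and 1 without esophagi TG1 and CTR1. It was 5 without livers TG2 and CTR1, which were picked from the values of the members. It was 3 (Cry2 added) with normexp, quantile normalization, the authors' table and array weights. The slide or the animal as a random block and the replicate number as a replicate block also gave 3 (Cry2 added). With the replicate number as a replicate block, 0 of 10 members were called in esophagus and 0 of 9 in liver, as without it; same-numbered TG and CTR mice correlated at -0.40 to 0.15, so the numbers do not pair them. In liver Arntl turned to 0.16 with array weights. Without single arrays the liver difference ran from -1.45 to 0.47 for Per1, -1.25 to 0.46 for Per2, -1.01 to 0.24 for Per3, -0.54 to 0.036 for Cry2, -1.33 to 0.35 for Arntl and -0.089 to 0.53 for Clock. For the esophagus minus liver change, array weights turned Per1 to 0.19, Per3 to 0.11, Cry1 to 0.37, Cry2 to 0.27, Clock to -0.23 and Nr1d1 to -0.16. That of Cry1 also turned with normexp (0.19), quantile normalization (0.36), the authors' table (0.19) and without livers TG2 and CTR1 (0.24). Cry2 turned to 0.020 without esophagi TG1 and CTR1 and to 0.17 without TG1 and TG2, Clock to -0.079 without TG1 and TG2, Nr1d1 to -0.55 without livers TG2 and CTR1, and Npas2 to 0.047 with normexp, 0.25 with quantile normalization and 0.046 with the authors' table. Without single arrays this change ran from -1.64 to 0.28 for Per1, -1.12 to 0.13 for Per3, -0.57 to 0.46 for Cry1, -0.47 to 0.10 for Cry2, -0.15 to 0.47 for Clock, -0.81 to 0.27 for Npas2 and -0.47 to 0.53 for Nr1d1. Between organs Per1 turned to -0.35 and Cry1 to -0.047 without livers TG2 and CTR1, and Npas2 to -0.14 with the common floor, to -0.071 without esophagi TG1 and CTR1, to -0.11 without TG1 and TG2, and over -0.052 to 0.48 without single arrays. The cause of these turns was not tested. With 3 mice a group most intervals were wide, and the dim probe of Npas2 gave a TG minus CTR value in esophagus of 0 with the common floor and 1.19 with the slide as a fixed block.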
